A study of Homo sapiens with 9 samples.

Results

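The transmembrane L6 family of the TM4SF genes was examined in RNA-seq values of Huh7 cells, an established line of human hepatocellular carcinoma (HCC). The members are TM4SF1 (Entrez gene ‘4071’), TM4SF4 (‘7104’), TM4SF5 (‘9032’), TM4SF18 (‘116441’) and TM4SF20 (‘79853’), which are 5 of the 20575 genes in the files, and all 5 have a row. They were selected on TM4SF4, which was among the genes raised strongly in siLATS1 against siControl. The values of the members in that contrast are therefore given as a description, with no test. There were 9 samples in 3 groups of 3, transfected with a control siRNA (siControl), an siRNA against LATS1 (siLATS1) or an siRNA against LATS2 (siLATS2), and the cells were collected 48 h after transfection. Whether each siRNA was a pool or a single duplex is not given for these samples in the sources used here. All samples come from this 1 cell line, so the p-values measure the spread between its cultures and not between patients. The labels name the siRNA as the only treatment, while the methods of the study also speak of sorafenib, and sample names here follow the labels.

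L6 family proteins are small glycoproteins that cross the cell membrane several times, with short cytoplasmic ends and a large extracellular loop. In topology they resemble the classic tetraspanins, the family of CD9, CD63 and CD81, but they are a separate family by sequence. Like tetraspanins, they gather integrins and growth factor receptors into membrane domains and are studied for their part in cell adhesion, migration and proliferation. TM4SF1, the tumour-associated L6 antigen, is high in endothelium and in many carcinomas. TM4SF4 is expressed in liver and intestine and has been linked to hepatocyte proliferation. TM4SF5 is best known from HCC, where it has been tied to epithelial-mesenchymal transition, and TM4SF20 is an intestinal member known for regulated cleavage of the transcription factor CREB3L1. LATS1 and LATS2 are the kinases of the Hippo pathway that phosphorylate YAP and TAZ, coactivators which bind DNA through TEAD factors.

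In the GRCh37 annotation TM4SF1, TM4SF4 and TM4SF18 lie together on chromosome 3. TM4SF18 spans chr3:149036285-149052201 on the minus strand, TM4SF1 spans chr3:149086809-149095479 on the minus strand, and TM4SF4 spans chr3:149192484-149221181 on the plus strand. The TM4SF1 and TM4SF4 starts are 97.0 kb apart and face away from each other. TM4SF5 lies at chr17:4675179-4686508 on the plus strand, and TM4SF20 at chr2:228226754-228246711 on the minus strand. The MANE Select transcripts of TM4SF1, TM4SF4 and TM4SF5 have 5 exons each and are 1555, 1491 and 714 bases long. The pseudogene EEF1A1P45 lies within TM4SF4 but touches none of its 5 exons. The antisense gene TM4SF18-AS1 overlaps an exon of TM4SF18, and whether the authors counted by strand is not given in the sources used here, so its reads cannot be told apart from those of TM4SF18.

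The 250 bases before the start are shown for the 3 members that were expressed at 1 CPM or more, so that base composition and short motifs can be read beside their levels. They are taken from RefSeq on GRCh38.p14, a later build than the hg19 of the files, and are written 5′ to 3′ on the strand of the gene. Capitals mark matches on either strand to CATTCC, the core bound by TEAD factors, TATAAA, the core of the TATA box, and GTTAAT, a half-site of the hepatocyte factor HNF1. These motifs do not overlap here and were chosen with the sequences in view. TM4SF1 is at chr3:149377650-149377899, TM4SF4 at chr3:149474447-149474696 and TM4SF5 at chr17:4771636-4771885.
TM4SF1: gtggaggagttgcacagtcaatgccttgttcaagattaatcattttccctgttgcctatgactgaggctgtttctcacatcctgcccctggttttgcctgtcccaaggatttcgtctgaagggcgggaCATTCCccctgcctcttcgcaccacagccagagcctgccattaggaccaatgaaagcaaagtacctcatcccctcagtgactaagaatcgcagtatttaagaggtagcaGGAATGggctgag
TM4SF4: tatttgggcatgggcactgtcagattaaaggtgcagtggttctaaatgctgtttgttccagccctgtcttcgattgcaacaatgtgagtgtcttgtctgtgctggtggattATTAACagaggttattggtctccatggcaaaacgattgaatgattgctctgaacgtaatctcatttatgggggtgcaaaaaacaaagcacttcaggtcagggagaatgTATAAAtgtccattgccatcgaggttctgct
TM4SF5: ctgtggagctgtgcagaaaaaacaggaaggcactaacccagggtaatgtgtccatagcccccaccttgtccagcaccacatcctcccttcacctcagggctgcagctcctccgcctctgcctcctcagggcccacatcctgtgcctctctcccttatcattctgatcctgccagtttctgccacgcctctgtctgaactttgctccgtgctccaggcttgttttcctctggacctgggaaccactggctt

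The TM4SF1 window holds CATTCC 2 times, starting 122 and 13 bases before the gene start, the latter on the opposite strand. The TM4SF4 window holds no CATTCC, has TATAAA 31 bases before the start and GTTAAT on the opposite strand 139 bases before it. None of the 3 motifs is in the TM4SF5 window. Of the 2 members not printed, TM4SF18 has 1 CATTCC 46 bases before its start and TM4SF20 has no match. Of 35116 promoter windows of this length in the RefSeq table, 11.9% hold CATTCC, 10.7% TATAAA and 6.23% GTTAAT. GC content was 50.8%, 43.2% and 57.2% in TM4SF1, TM4SF4 and TM4SF5, 40.0% in TM4SF18 and 31.2% in TM4SF20, against a median of 58.0% over all windows. A match of 6 letters is a description of the sequence, not evidence of binding.

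The samples held 23548247 to 32193525 counted reads, so that 1 read was worth 0.03106 to 0.04247 CPM, the count of a gene relative to all counted reads of its sample. Levels below are CPM after TMM scaling, which uses a trimmed mean of log ratios between samples, and differences are on the log2(CPM + 1) scale, which understates the change of low genes. LATS1 itself was at 110, 55.2 and 62.9 CPM in the siControl samples, 27.1, 20.1 and 15.6 CPM in siLATS1 and 54.7, 78.6 and 51.2 CPM in siLATS2. Every siLATS1 sample lay below all other samples, and the log2 difference to siControl was -1.78 ± 0.313 (SE, limma, past the unadjusted threshold given below, adjusted p = 0.126). LATS2 was not analysed here, so the siLATS2 samples were not checked by the level of their target, and every comparison with siLATS2 rests on its label. The replicate 1 library of siControl stood apart: Pearson's r of log2(CPM + 1) over tested genes was 0.859 and 0.866 with the other siControl samples, which had 0.995 with each other. In 10.8% of the 12901 tested genes it lay more than 5-fold below both other siControl samples, and in 0 genes more than 5-fold above both. Results that rest on it are given with and without it.

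A gene was tested where it reached 1 CPM in at least 3 of the 9 samples. Of the 5 members 3 passed, TM4SF1, TM4SF4 and TM4SF5, and TM4SF18 and TM4SF20 did not. Per length of the MANE Select transcript, the mean level over the 9 samples was 453 RPKM for TM4SF1, 62.6 RPKM for TM4SF5, 3.29 RPKM for TM4SF4, 0.036 RPKM for TM4SF18 and 0.00721 RPKM for TM4SF20. TM4SF1 ranked 100 of 16197 genes by this level, TM4SF5 ranked 1171, TM4SF4 ranked 8733, TM4SF18 ranked 13203 and TM4SF20 ranked 14304. The order of TM4SF1, TM4SF5 and TM4SF4 was the same in all 9 samples. TM4SF18 and TM4SF20, at a few reads or none, cannot be ordered in single samples. Of the summed CPM of the 5 members, TM4SF1 took 89.2% to 98.8%, depending on the sample.

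TM4SF4, the liver and intestinal member on which the family was selected, was low in siControl and higher in the siLATS1 samples. The levels of TM4SF4 were 2.46, 1.968 and 1.918 CPM in siControl (56, 49 and 52 reads), 10.66, 7.147 and 11.41 CPM in siLATS1 (312, 200 and 284 reads) and 3.015, 2.844 and 2.726 CPM in siLATS2 (97, 78 and 76 reads). All siLATS1 samples were above all others, and all siLATS2 samples were above all siControl samples. The mean was 2.12 ± 0.299 CPM in siControl, 9.74 ± 2.27 CPM in siLATS1 and 2.86 ± 0.145 CPM in siLATS2 (SD, n = 3 each). The siLATS1 mean was 4.6-fold the siControl mean, and the log2 difference was 1.77 ± 0.186 (SE), rank 11 of the 300 raised genes by size. The raised genes just above it were TNFSF10, encoding the death ligand TRAIL (1.79), and CD44 (1.78), and those just below it were OSBP2 (1.73) and TNC, encoding tenascin C (1.73). TM4SF4 was the 1 member past the threshold of the methods of the study, an unadjusted p under 0.05 with an absolute log2 difference of at least 0.58. In this contrast 2.91% of the tested genes passed it in either direction and 2.33% were raised, but since this contrast chose TM4SF4 nothing is read from its call.

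Against siLATS2 the siLATS1 mean of TM4SF4 was 3.4-fold higher, a log2 difference of 1.45 ± 0.186 (SE). This comparison uses the same siLATS1 samples as the selection, so it carries no test either; 1.86% of the tested genes passed the threshold here, and TM4SF4 was the 1 member among them. The siLATS2 mean was 1.35-fold the siControl mean, a log2 difference of 0.31 ± 0.186 (SE), with a 95% interval of -0.11 to 0.74. This did not pass the limma test (adjusted p = 0.95), with the siControl samples shared with the contrast that chose the gene. In siLATS2 against siControl 0 of the 3 tested members passed the threshold in limma, edgeR or DESeq2, or had an unadjusted limma p under 0.05, and 0.271% of all tested genes passed it. The groups of TM4SF4 did not overlap in any of the 3 contrasts. Groups failed to overlap in 8.48% of tested genes in siLATS1 against siControl, 3.51% in siLATS2 against siControl and 12.4% in siLATS1 against siLATS2. The read counts bear on the precision: the siControl level rests on 157 reads in all, the siLATS1 level on 796 and the siLATS2 level on 251.

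**Figure D1:**
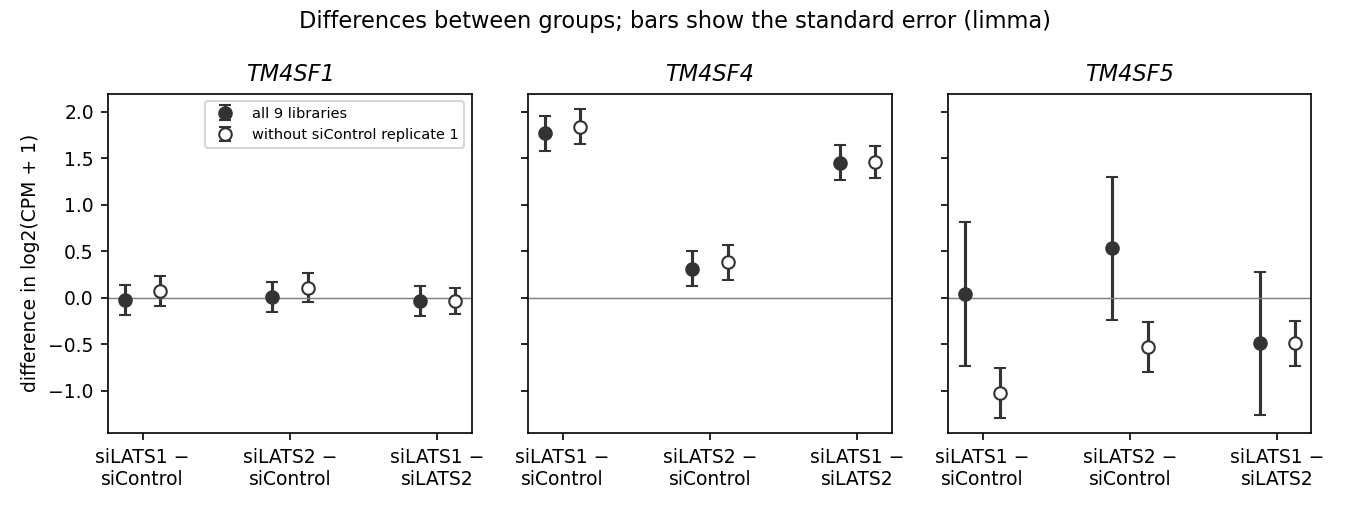
Differences in log2(CPM + 1) between groups (vertical axis) for TM4SF1, TM4SF4 and TM4SF5, with the standard error of the limma fit, from all 9 libraries (filled) and without siControl replicate 1 (open). TM4SF1 lies near 0 throughout, TM4SF4 is at 1.77 and 1.84 in siLATS1 against siControl, and TM4SF5 moves from 0.04 to -1.02 in that contrast when the library is left out.

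TM4SF1, the L6 antigen itself, was the abundant member, and its groups lay close together. It was at 824.5, 607.2 and 696.1 CPM in siControl, 732.1, 729.4 and 617.9 CPM in siLATS1 and 635.2, 832.0 and 672.0 CPM in siLATS2. The groups overlapped throughout, with means of 709 ± 109, 693 ± 65.2 and 713 ± 105 CPM (SD, n = 3 each). The log2 difference was -0.03 ± 0.164 (SE) in siLATS1 against siControl. In siLATS2 against siControl it was 0.01, with a 95% interval of -0.37 to 0.38 (limma, adjusted p = 0.991), and in siLATS1 against siLATS2 it was -0.04, with an interval of -0.41 to 0.34 (adjusted p = 1.0). The depth behind these values was 15114 to 22821 reads per sample, so the width of the intervals comes from the spread between samples. The antisense gene TM4SF1-AS1 was at 0.848 ± 0.147 CPM in siControl, 1.09 ± 0.17 CPM in siLATS1 and 0.947 ± 0.245 CPM in siLATS2 (SD, n = 3 each), and its difference between siLATS1 and siControl, 0.18, did not pass the test (adjusted p = 0.979).

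TM4SF5, the member linked to HCC, was the second in level and varied between samples more than between groups. Its levels were 7.028, 71.07 and 69.12 CPM in siControl, 27.07, 32.27 and 46.22 CPM in siLATS1 and 55.73, 34.74 and 59.28 CPM in siLATS2. The siControl group therefore held both the lowest sample and the highest samples, and its coefficient of variation was 74.2%, against 28.1% in siLATS1 and 26.6% in siLATS2. With all samples the log2 difference was 0.04 ± 0.771 (SE) in siLATS1 against siControl, and -0.539 and -0.494 in edgeR and DESeq2 on the recovered reads. It was 0.53 in siLATS2 against siControl, with a 95% interval of -1.24 to 2.3 (limma, adjusted p = 0.95), and -0.49 in siLATS1 against siLATS2, with an interval of -2.26 to 1.28 (adjusted p = 1.0).

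Without siControl replicate 1 the picture for TM4SF5 changed. All siLATS1 samples lay below both remaining siControl samples, and the log2 difference was -1.02 ± 0.27 (SE). The number of members past the threshold in siLATS1 against siControl was then 2 in place of 1, while 5.67% of all tested genes passed it, against 2.91% with all samples. As this contrast chose the family, the count is a description. All siLATS2 samples also lay below both, with a difference of -0.53 and an interval of -1.14 to 0.08 (adjusted p = 0.999). The direction in siLATS2 against siControl thus turns on 1 library. Groups of 3 and 2 samples separate more easily than groups of 3. How many of all tested genes separated without that library was not counted, so nothing is read from the separation. Between siLATS1 and siLATS2 the difference without that library was -0.49, with an interval of -1.03 to 0.06 (adjusted p = 0.753). In that library the low TM4SF5 level was shared with many genes, as given above, and the part of the library in the result was not tested. Over all tested genes its deviations from the group mean correlated with those of siLATS1 replicate 1 (r = 0.92) and siLATS2 replicate 2 (r = 0.872). These samples had the lowest TM4SF5 levels of their groups, 27.07 and 34.74 CPM, and stayed in the fits without siControl replicate 1. Their part in the differences was not tested either.

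TM4SF18 and TM4SF20 were near the limit of detection. TM4SF18, the third member of the chromosome 3 cluster, had 2, 4 and 1 reads in siControl, 6, 4 and 4 reads in siLATS1 and 4, 5 and 3 reads in siLATS2. These sum to 7, 14 and 12 reads, the groups overlapped, and a difference was not detectable at this depth. TM4SF20 had 1, 0 and 1 reads in siControl, 0, 1 and 1 in siLATS1 and 0 in each siLATS2 sample. A sum of 0 reads of 88656045 allows a level of up to 3 reads, 0.0338 CPM, by counting error alone, so no fold is given. TM4SF19, an L6 gene outside the 5 members, had 0 reads in siControl and siLATS2 and 1, 0 and 1 reads in siLATS1.

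The marker genes of the tissues in which the members are known were measured in the same samples. Hepatocyte genes were high, with summed levels of 13400 to 22300 CPM in siControl, 13900 to 18300 CPM in siLATS1 and 11900 to 16600 CPM in siLATS2 over all 8 listed genes. In siLATS1 against siControl 2 of the 8 rose and 1 fell at the threshold of the study, where 2.91% of all tested genes passed. The other 5 did not pass, and 0 passed after adjustment in limma. SERPINA1, encoding alpha-1 antitrypsin (0.72, adjusted p = 0.499), and TTR, encoding transthyretin (0.77, adjusted p = 0.802), rose. APOB, the apolipoprotein of VLDL, fell (-0.70, adjusted p = 0.691). Without siControl replicate 1 the log2 differences were 0.52 for SERPINA1, 0.39 for TTR and -0.50 for APOB, all under the size of the threshold. In siLATS1 against siLATS2, where 1.86% of all tested genes passed, 1 of the 8 rose, SERPINA1 (0.63, adjusted p = 0.89), and 0 fell. Its difference there was also 0.63 without siControl replicate 1. Of the endothelial markers, CDH5, KDR, VWF and TEK were under 1 CPM in every sample, while TM4SF1, a gene high in endothelium, was at 607.2 CPM or more in each sample. The endothelial sum was 1.77 to 2.77 CPM in siControl, 0.723 to 1.61 CPM in siLATS1 and 1.22 to 1.59 CPM in siLATS2, nearly all of it PECAM1, which was lower in siLATS1 than in siControl (-0.72, adjusted p = 0.421). Intestinal VIL1 was at 225 CPM and CDX2 at 11.2 CPM in siControl, with SI and MUC2 under 1 CPM in every sample, and the intestinal sums were 115 to 309, 211 to 306 and 226 to 304 CPM over the 4 genes found. Biliary sums over 7 genes were 627 to 680, 624 to 648 and 658 to 795 CPM in siControl, siLATS1 and siLATS2, with KRT7 near 0 and CFTR below the filter. The other biliary genes were expressed, with siControl means of 218 CPM for SPP1, 124 CPM for PROM1, 116 CPM for SOX9 and 55.2 CPM for EPCAM. KRT19 had a siControl mean of 143 CPM and ran there from 12.5 to 212 CPM. Fibroblast sums were 5.4 to 15.6, 10 to 28.6 and 10.4 to 17.9 CPM, and leukocyte sums 20.3 to 30, 22.8 to 26.7 and 24.1 to 27.7 CPM. Their part in the member levels was not tested, and in bulk RNA fewer cells with a transcript and less transcript per cell cannot be told apart.

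The classic tetraspanins, which share the membrane topology of the L6 family, were tested as a list. Of 33 listed genes 29 were in the files and 20 were tested. In siLATS1 against siControl 2 of the 20 rose and 0 fell at the threshold of the study, where 2.91% of all tested genes passed, and 0 passed after adjustment in limma. The median log2 difference of the 20 was 0.28, against 0.019 over all tested genes. Without siControl replicate 1 it was 0.0, against -0.013 over all tested genes, so the higher median rests on that library. TSPAN7, a tetraspanin best known from neurons, was at 11, 9.52 and 6.2 CPM in siControl, 23.1, 16.8 and 20.8 CPM in siLATS1 and 14.8, 10.2 and 12.5 CPM in siLATS2. Its siLATS1 samples lay above all others, by 1.12 on the log2 scale against siControl (SE 0.24, adjusted p = 0.223) and by 0.66 against siLATS2 (adjusted p = 0.995). TSPAN33, which partners the metalloprotease ADAM10, went from 10.9 ± 2.92 to 17.0 ± 4.49 CPM (SD, n = 3; log2 difference 0.60, adjusted p = 0.805), and without siControl replicate 1 its difference of 0.38 no longer passed while TSPAN2 did (0.59). In siLATS2 against siControl 0 tetraspanins passed in limma at that threshold, and 0 had an unadjusted p under 0.05. Here the median was 0.25, against 0.032 over all tested genes. Without siControl replicate 1 the median was 0.07, against 0.018, and TSPAN7 passed (0.60), where 0.536% of all tested genes did. In siLATS1 against siLATS2, where 1.86% of all tested genes passed, 2 of the 20 were higher, TSPAN7 and TSPAN2 (0.62, adjusted p = 1.0), and the median was -0.03, against -0.035 over all tested genes. The highest levels were those of TSPAN3, CD63, CD151 and TSPAN13, none of which passed in any contrast. CD151, a laminin-binding integrin partner, was at 18.2 CPM in siControl replicate 1 and 216 and 246 CPM in the other siControl samples, a pattern like that of TM4SF5. Its log2 difference between siLATS1 and siControl was 0.81 with that library and -0.40 without it.

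**Figure D2:**
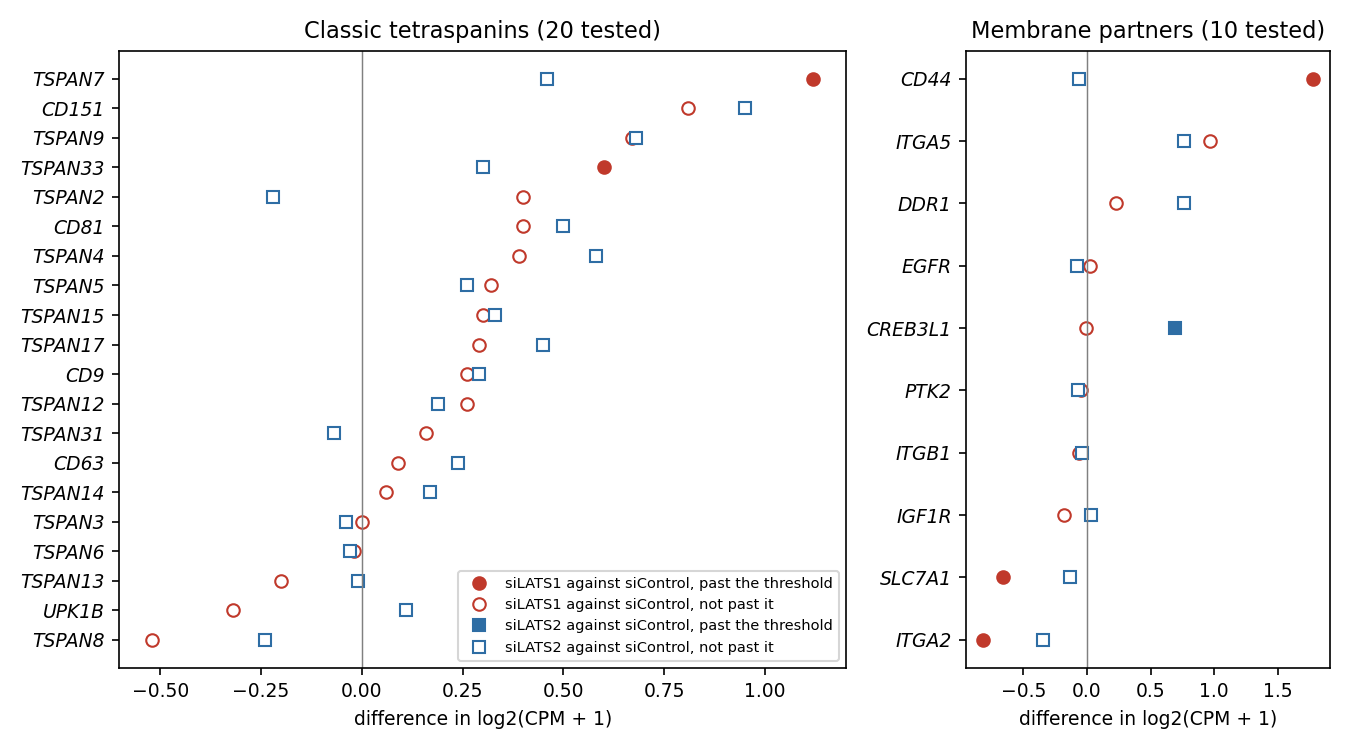
Differences in log2(CPM + 1) against siControl (horizontal axis) for the 20 tested classic tetraspanins and the 10 tested partner genes, in siLATS1 (circles) and siLATS2 (squares). Filled marks passed an unadjusted limma p under 0.05 with an absolute difference of at least 0.58; TSPAN7 at 1.12 and CD44 at 1.78 lie farthest to the right in siLATS1.

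A list of 10 genes described with L6 proteins, as partners or otherwise tied to them, was tested in full. In siLATS1 against siControl 1 of the 10 rose and 2 fell, where 2.91% of all tested genes passed, and 0 passed after adjustment in limma. The median log2 difference was -0.03, and -0.14 without siControl replicate 1. CD44, the hyaluronan receptor, was at 0.0439, 0.603 and 0.295 CPM in siControl, 1.85, 12.3 and 1.33 CPM in siLATS1 and 0.124, 0.401 and 0.215 CPM in siLATS2. All siLATS1 samples were above the others, with replicate 2 far above the other siLATS1 samples, and the difference to siControl was 1.78 ± 0.58 (SE, adjusted p = 0.586). ITGA2, a collagen-binding integrin subunit described with TM4SF5, fell by 0.82 (adjusted p = 0.651), from 116, 77.1 and 93.2 CPM to 56.3, 68.9 and 38.0 CPM. SLC7A1, the arginine transporter, fell by 0.66 (adjusted p = 0.474), from 42.7, 63.0 and 64.7 CPM to 31.8, 40.6 and 32.9 CPM. All 3 calls remained without siControl replicate 1.

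In siLATS2 against siControl, where 0.271% of all tested genes passed, the 1 listed gene past the threshold was CREB3L1 (0.69, adjusted p = 0.95). Its cleavage is the step tied to TM4SF20. CREB3L1 did not pass without siControl replicate 1 (0.38). The median of the list was -0.05 in this contrast. In siLATS1 against siLATS2, where 1.86% of all tested genes passed, CD44 was higher by 1.84 (adjusted p = 0.757) and CREB3L1 lower, by -0.70 (adjusted p = 1.0). The median of the list was -0.12, against -0.035 over all tested genes. ITGB1, encoding the common beta-1 integrin chain, was at 504 CPM in siControl and EGFR at 312 CPM, and neither differed past the threshold in any contrast. For EGFR the 95% interval of the log2 difference between siLATS1 and siControl was -0.23 to 0.27.

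The genes next to the members were examined as well, taking every gene in the files whose start lay within 500 kb of a member start. Around the chromosome 3 cluster 11 further genes were in the files and 8 were tested, and 0 passed the threshold in any of the 3 contrasts in limma. The number with an unadjusted p under 0.05 was 1 in siLATS1 against siControl, CP, encoding ceruloplasmin (-0.53, adjusted p = 0.764), 0 in siLATS2 against siControl and 1, WWTR1, in siLATS1 against siLATS2. CP was at -0.39 without siControl replicate 1, and its unadjusted limma p was then no longer under 0.05. In siLATS1 against siControl the log2 differences of the 8 genes ran from -0.53 to 0.35. TM4SF4 stood at 1.77 but was chosen for its rise in this contrast, so nothing is read from its distance to them. WWTR1, which encodes TAZ and starts 262.0 kb from TM4SF4, was at 37.2, 26.2 and 27.5 CPM in siControl, 43.2, 36.9 and 35.5 CPM in siLATS1 and 27.7, 30.0 and 23.8 CPM in siLATS2. It did not pass in siLATS1 against siControl (0.35, 95% interval -0.07 to 0.77, adjusted p = 0.979). Its difference was 0.49 without siControl replicate 1, with an unadjusted limma p under 0.05 but still under the size of the threshold. Against siLATS2, with all samples, WWTR1 was higher in every siLATS1 sample. This difference of 0.49 had an unadjusted p under 0.05 (adjusted p = 1.0) but was under the size of the threshold.

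**Figure D3:**
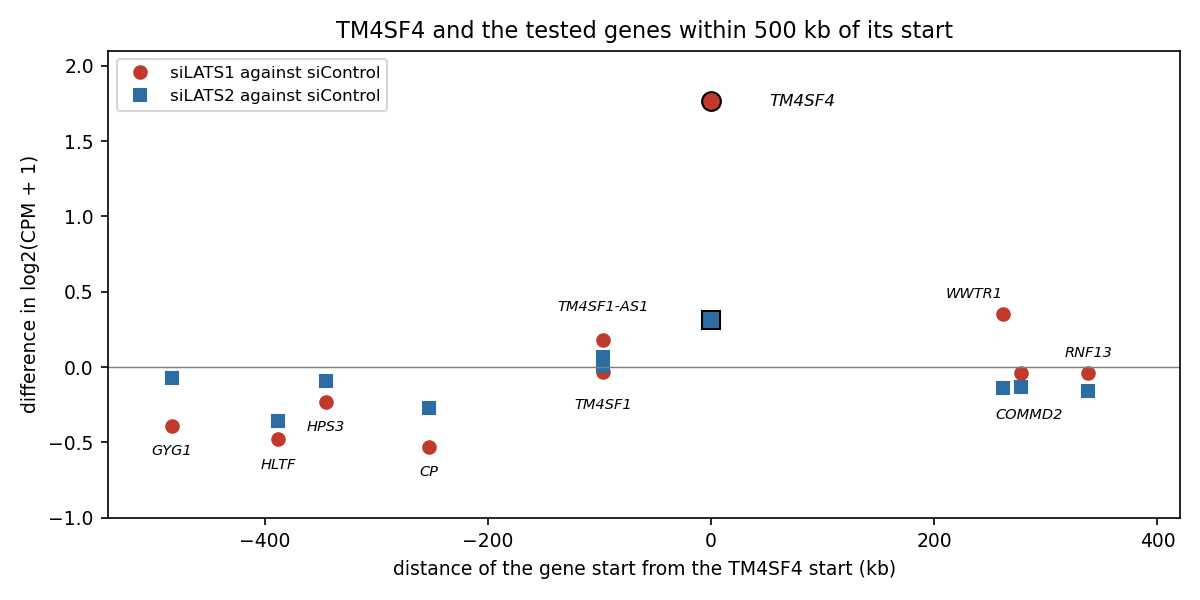
Differences in log2(CPM + 1) against siControl (vertical axis) for TM4SF4 and the tested genes whose start lies within 500 kb of the TM4SF4 start, by distance in kb (horizontal axis, negative towards TM4SF1). Circles are siLATS1 and squares siLATS2. TM4SF4, at distance 0 and drawn larger, is at 1.77 in siLATS1 and 0.31 in siLATS2, and the other genes lie between -0.53 and 0.35. TM4SF4 was chosen for its rise in siLATS1 against siControl, so its height there is a description.

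Of 22 tested genes around TM4SF5, 1 passed in siLATS1 against siControl, beside 2.91% of all tested genes. CXCL16, a transmembrane chemokine gene 32.0 kb away, was at 99.5, 172 and 155 CPM in siControl, 92.1, 97.1 and 83.1 CPM in siLATS1 and 154, 153 and 141 CPM in siLATS2. All siLATS1 samples were below all others. Groups failed to overlap in 8.48% of tested genes against siControl and in 12.4% against siLATS2. The log2 differences were -0.61 against siControl (adjusted p = 0.62) and -0.71 against siLATS2 (adjusted p = 0.61). The latter also passed the unadjusted threshold, beside 1.86% of all tested genes. Without siControl replicate 1 the difference to siControl was -0.86 and still passed, where 5.67% of all tested genes did.

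Of 7 tested genes around TM4SF20, 2 rose in siLATS1 against siControl, beside 2.33% of all tested genes. They were COL4A4 and COL4A3, a head-to-head pair that encodes basement membrane collagen chains and starts 217.5 and 217.4 kb from TM4SF20. COL4A4 was at 9.84, 8.88 and 9.15 CPM in siControl, 23.2, 17.5 and 26.9 CPM in siLATS1 and 13.6, 11.4 and 11.9 CPM in siLATS2. COL4A3 was at 2.94, 3.13 and 3.1 CPM in siControl, 8.2, 6.08 and 10.7 CPM in siLATS1 and 4.94, 3.86 and 5.45 CPM in siLATS2. For both genes all siLATS1 samples lay above all siLATS2 samples, and these above all siControl samples. The groups of TM4SF4 had the same order. Groups failed to overlap in 12.4% of tested genes in siLATS1 against siLATS2 and in 3.51% in siLATS2 against siControl. How many genes had both was not counted. In siLATS2 against siControl the differences were 0.37 for COL4A4 and 0.49 for COL4A3 (limma, adjusted p = 0.95 for each). Neither passed the threshold. The difference between siLATS1 and siControl was 1.17 for each (adjusted p = 0.0959 for COL4A4 and adjusted p = 0.13 for COL4A3). Without siControl replicate 1 this difference was 1.2 for COL4A4 and 1.14 for COL4A3. Between siLATS1 and siLATS2 it was 0.81 for COL4A4 (adjusted p = 0.413) and 0.68 for COL4A3 (adjusted p = 0.739), past the unadjusted threshold for both. In that contrast 1.86% of all tested genes passed it. TM4SF20 itself, beside them, stayed at 0 or 1 read per sample.

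The tested genes whose levels followed each member over the 9 samples differed between the members. Pearson's r of log2(CPM + 1) is given as a description, since the 9 points share the 3 groups and their libraries. TM4SF4 was followed by ADH1B, encoding a hepatic alcohol dehydrogenase (r = 0.988), PGAP4, an enzyme of GPI anchor maturation (r = 0.985), and KCNJ3, a potassium channel subunit (r = 0.984), and 38 of 12900 genes reached r of 0.95. ADH1B was at 0.264, 0.0803 and 0 CPM in siControl, 6.7, 2.57 and 4.86 CPM in siLATS1 and 0.342, 0.255 and 0.179 CPM in siLATS2, so siLATS1 replicate 2 was the lowest siLATS1 sample for both genes. KCNJ3 was at 1.27, 1.04 and 0.959 CPM in siControl, 4.17, 3.47 and 5.9 CPM in siLATS1 and 1.52, 1.64 and 1.79 CPM in siLATS2, again lowest in replicate 2 of siLATS1. Since TM4SF4 was chosen for its rise in siLATS1, genes that follow it are high in siLATS1 by construction, and no test is given for them.

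TM4SF1 was followed by MXD1, a partner of MAX (r = 0.979), CSTF1, of the mRNA cleavage machinery (r = 0.967), and MRPS6, a mitochondrial ribosomal protein (r = 0.965), and 19 genes reached r of 0.95. TM4SF5 was followed by ARHGAP27 (r = 0.997), CLN3, a lysosomal membrane protein (r = 0.995), and TTC7A (r = 0.994), and 1856 genes reached r of 0.95. CLN3 was at 16.5 CPM in siControl replicate 1 and 106 and 103 CPM in the other siControl samples, the same split as TM4SF5. Without that library r was 0.994, 0.981 and 0.978 for these 3 genes. Between the members r was -0.09 for TM4SF1 and TM4SF4, -0.73 for TM4SF1 and TM4SF5 and -0.13 for TM4SF4 and TM4SF5, and the last became -0.72 without siControl replicate 1.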

How the data were processed

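RNA was measured in 9 samples of Huh7 cells, 3 each with siControl, siLATS1 and siLATS2, grouped by their labels. Reads with a unique hit on hg19 (STAR) were counted by the authors over RefSeq genes, and the deposited values are CPM. Divided by the value of a single read, each CPM came out whole (100% of values, tolerance 0.05), so reads and depth were recovered. The labels name ribosomal RNA depletion while the methods of the study name poly-A RNA. A row without a gene number (1 per file) was left out of all steps.

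The values were scaled by TMM (30% of log ratios and 5% of levels trimmed), log2(CPM + 1) was taken and all 9 samples were fitted with limma 3.58.1 (R 4.3.3) with a mean-variance trend and no block, over genes with at least 1 CPM in 3 samples, with Benjamini-Hochberg adjustment over all 12901 genes. The count tests edgeR 4.0.16 and DESeq2 1.42.0 ran on the recovered reads as alternatives. The fit was tested on simulated data. These held no library that stood apart, so that test does not bear on siControl replicate 1. Counting limits cover counting error only.

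The members and lists were chosen with earlier results of these data known. Named are the members, LATS1, TM4SF19, list genes past the threshold and the highest of each list, genes within 500 kb of a member, and the 3 genes with the highest r for each tested member. RPKM uses MANE Select lengths of GENCODE on GRCh37. Alternatives were other scalings, pseudocounts, filters and tools, a replicate block, and each sample left out.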

Additional observations from a re-analysis of the deposited data

How the results depend on the processing

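In siLATS1 against siControl, the contrast that chose TM4SF4, its log2 difference was 1.654 to 2.216 over 18 alternatives, which is a description; the values were 2.131 with a pseudocount of 0.1, 2.171 in edgeR and 2.216 in DESeq2. The number of members past it was 1 with all samples and 1 to 2 when 1 sample was left out, 2 without siControl replicate 1. In the same contrast TM4SF5 turned from 0.04 to -0.539 in edgeR and -0.494 in DESeq2 and ran from -1.022 to 0.543 when 1 sample was left out, and TM4SF1 turned from -0.026 to 0.064 without TMM factors and ran from -0.18 to 0.075. In siLATS2 against siControl TM4SF1 changed sign around 0, with -0.004 under median-of-ratios factors, -0.041 with the 6 samples compared, -0.027 in edgeR, -0.003 in DESeq2, and -0.16 to 0.108 when 1 sample was left out. TM4SF5 did so with -0.034 in edgeR, -0.007 in DESeq2 and -0.534 to 1.034 when 1 sample was left out. In siLATS1 against siLATS2 TM4SF1 was 0.04 without TMM factors and -0.103 to 0.085 when 1 sample was left out. LATS1 in siLATS1 against siControl ran from -2.021 to -1.497. Leaving out siControl replicate 1 from the lists, neighbouring genes and correlations was chosen after seeing the data.

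The replicate numbers did not establish pairs: the deviations of same-numbered samples correlated at -0.874 to 0.92, with 5 of 9 pairs over 0.1. Samples with different numbers also correlated strongly, for example siControl replicate 1 with siLATS2 replicate 2 (0.872) and siLATS1 replicate 3 with siLATS2 replicate 2 (-0.896). Deviations were thus shared across groups without following the numbers. With the replicate block 1 member passed in siLATS1 against siControl, TM4SF4 at 1.766, and over all genes 400 passed, against 376 without it, while 0 in place of 13 passed after adjustment. Depth limits TM4SF18 and TM4SF20, at no more than 6 reads per sample.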
